A study of Danio rerio with 12 samples.

Results

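A set of stress-linked microRNAs (miRNAs) was followed in zebrafish embryos exposed to TCDD: miR-21, linked to injury and repair, the miR-34 family, linked to the tumour suppressor p53, and miR-210, linked to low oxygen. The members were taken by name from the 699 miRNA rows of the deposited count tables. All rows named mir-21, mir-34, mir-34b, mir-34c or mir-210 were kept, with hairpin copies and both arms, which gave 12 rows. The copies of the miR-21 major arm, mir-21-1 and mir-21-2, had almost equal counts in most libraries, such as 3887 and 3614 in 60 hpf TCDD library 1, and were counted once. This left 11 features of 468, of which 5 were major arms and 6 were minor arms, written with a star. The star follows the deposited name and does not always mark the less abundant arm.

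Small RNA was sequenced from embryos of the TL wild type strain in 12 libraries, 3 for each of 4 groups. The groups were TCDD embryos at 36 hours post fertilisation (hpf), DMSO embryos at 36 hpf, TCDD embryos at 60 hpf and DMSO embryos at 60 hpf. TCDD, a dioxin, is a ligand of the aryl hydrocarbon receptor (AHR), and DMSO is the solvent control. The labels state neither a dose nor how long embryos were exposed. They also leave unstated whether libraries of a group came from separate clutches, so p-values cover the spread among these libraries, which may be technical. The RNA came from embryos and not from sorted cells, so fewer cells of a type and less RNA per cell cannot be told apart.

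A miRNA hairpin is cut into a pair of short RNAs, one from each arm, and one of them is usually retained to repress messenger RNAs that match its seed near the 5′ end. The AHR works as a dimer with ARNT, and ARNT is also the partner of the hypoxia-inducible factors that switch on miR-210 when oxygen is low. In mammals p53 directly activates the genes of miR-34a, here named miR-34, and of miR-34b and miR-34c, which form one family and restrain the cell cycle. In zebrafish miR-34b is also needed for multiciliated cells. miR-21 is raised by injury and inflammation in many mammalian tissues, and in zebrafish it acts in the endothelium of the forming heart valve. In the RefSeq annotation of assembly GRCz12tu, mir34b and mir34c are direct neighbours, mir210 lies beside phrf1 and near irf7, mir-21-1 lies beside rps6kb1a, mir-21-2 lies near vmp1, and mir34a overlaps spsb1. No genome build is named for the counts, and coordinates are therefore not printed.

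Each library held 459749 to 4211570 miRNA counts, and the 5 hairpins made up 0.417% to 1.49% of them. Levels are given as CPM, miRNA counts scaled to a common library total with TMM factors (counts per 1e6). Of the 11 features, 10 were abundant enough for the test, as were 412 features in all. Markers of muscle, epidermis, red cells, leukocytes, nerve, endothelium, and liver and gut were found in all 4 groups. Some libraries stood apart. In the TCDD libraries numbered 2, a feature lay at least 4-fold below every other library of its time for 18 features at 36 hpf and for 10 at 60 hpf. In the TCDD libraries numbered 3 this held for 20 and 18 features. In the 8 other libraries it held for 2 to 10. The deviations of TCDD libraries with the same number were correlated between the times (r of 0.25 to 0.41 across features, which are not independent replicates), and this bears on several results below.

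Across the 5 hairpins, TCDD changed no arm detectably at either time. At 36 hpf 0 of the 10 tested features passed edgeR's quasi-likelihood test at an adjusted p under 0.05, against 0% of all features, and 0 had an unadjusted p under 0.05. At 60 hpf 0 of 10 passed, against 0.243% of all features, again with 0 at an unadjusted p under 0.05. DESeq2 and limma-voom also called 0 of the members at each time. The median log2 fold change of the members was -0.01 at 36 hpf and -0.06 at 60 hpf, beside 0.04 and 0.00 over all 412 features. Averaged over both times 0 of 10 passed, against 0.243%, with 0 at an unadjusted p under 0.05, and for the difference between the times 0 of 10 passed, against 0%, also with 0. DESeq2 and limma-voom called 0 members in both of these comparisons too. At 60 hpf the libraries of TCDD and DMSO embryos did not overlap for 2 of the 10 members, miR-210* and miR-34c, where the share over all features was 21.4%. At 36 hpf they overlapped for all 10, where 5.58% of all features had no overlap.

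**Figure D1:**
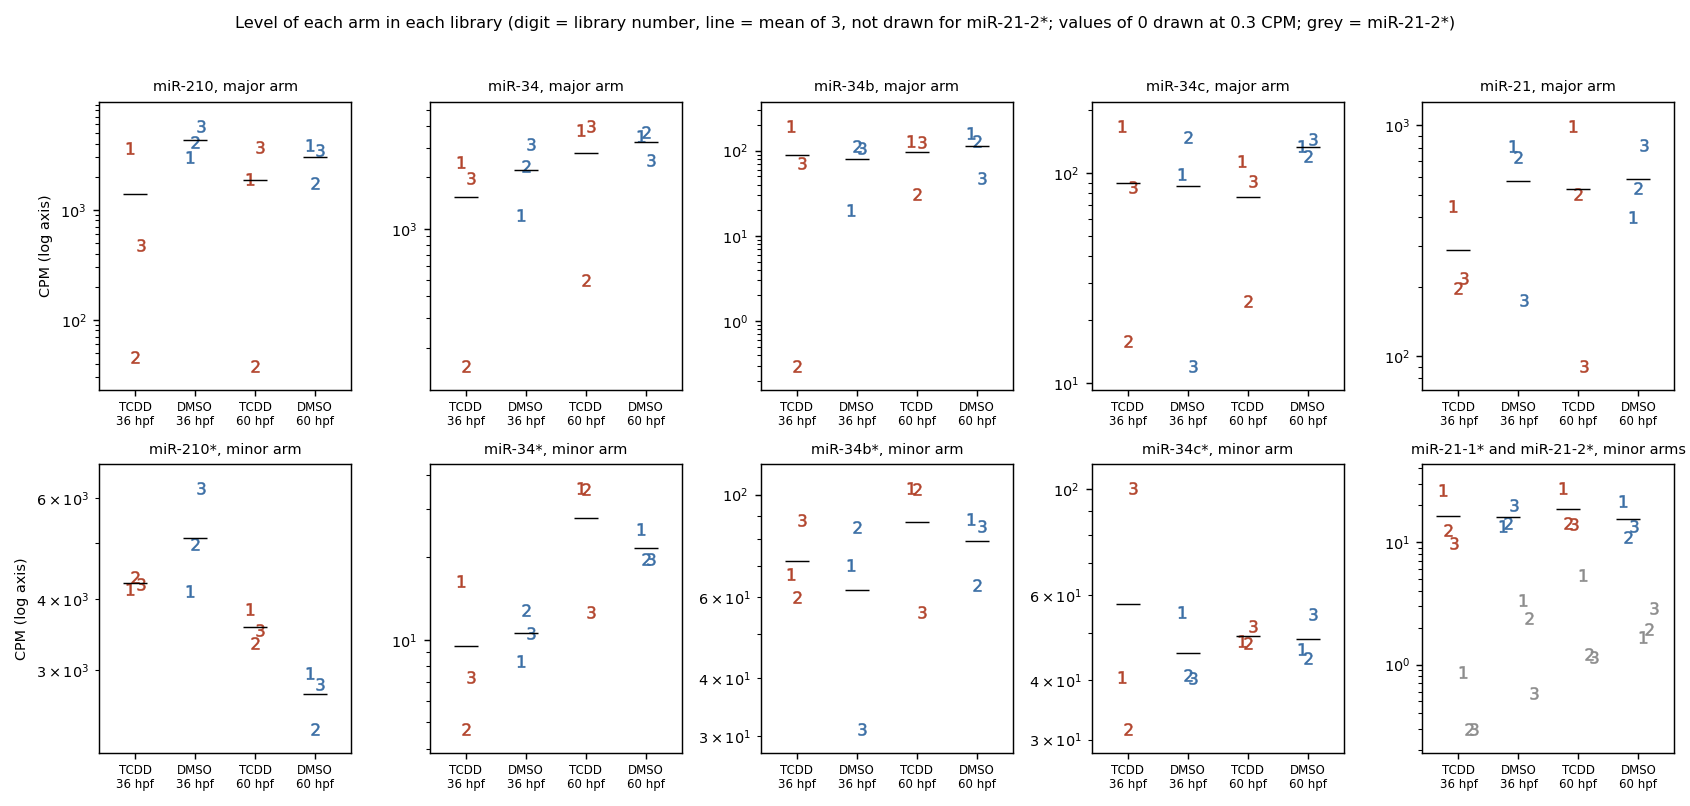
Level of every arm in every library, in CPM on log axes, with TCDD libraries in red and DMSO libraries in blue; digits are the library numbers, lines the group means, grey digits miR-21-2*, and counts of 0 are drawn at the bottom of the panel. miR-210 and miR-34 fall far below the other libraries in the TCDD libraries numbered 2 at both times, while miR-210* stays between 2368 and 6245 CPM throughout.

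miR-210, the miRNA most closely tied to hypoxia, behaved differently on its 2 arms. The major arm stood at 3658, 45.9 and 479 CPM in the TCDD libraries 1, 2 and 3 of 36 hpf, against 3020.0, 4132 and 5821 CPM in the DMSO libraries. At 60 hpf it stood at 1890.0, 38.3 and 3695 CPM in TCDD and at 3865, 1764 and 3489 CPM in DMSO embryos. The low values were thus in TCDD library 2 at both times and, less so, in TCDD library 3 at 36 hpf, and the groups overlapped at both times. In counts, TCDD library 2 had 29 reads of the major arm beside 2759 of the minor arm at 36 hpf, and 94 beside 8205 at 60 hpf. At 36 hpf that library lay 10.4-fold below the next lowest library of its time, and at 60 hpf 46.1-fold. The log2 fold change of TCDD against DMSO was -1.63 (edgeR, SE 1.39, adjusted p = 0.994) at 36 hpf and -0.70 (SE 1.37, adjusted p = 0.995) at 60 hpf. Without both TCDD libraries numbered 2 it was -1.18 (SE 0.77) and -0.09 (SE 0.74), and without both numbered 3 it was -1.22 (SE 1.62) and -1.66 (SE 1.66). None of these values passed. Leaving out TCDD library 1 of 36 hpf gave -4.09 (edgeR, SE 1.57, adjusted p = 0.696) at that time. With limma-voom the values were -3.20 (SE 1.72) at 36 hpf and -2.11 (SE 1.67) at 60 hpf, and neither passed.

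The minor arm miR-210* was the more even of the pair and among the steadiest features measured. It stood at 4155, 4365 and 4246 CPM in TCDD and at 4121, 4985 and 6245 CPM in DMSO embryos of 36 hpf, and the groups overlapped. At 60 hpf the TCDD libraries stood at 3840.1, 3343 and 3526 CPM and the DMSO libraries at 2965, 2368 and 2835 CPM. All 3 TCDD libraries of 60 hpf lay above all 3 DMSO libraries. The means were 3570 ± 252 CPM in TCDD embryos and 2723 ± 314 CPM in DMSO embryos (n = 3 each, SD), a log2 fold change of 0.39 (edgeR, SE 0.24, adjusted p = 0.884) that did not pass. At 36 hpf the log2 fold change was -0.27 (SE 0.24, adjusted p = 0.994). The difference between these effects was 0.66 (SE 0.34, adjusted p = 0.886) and did not pass either, so the effects are not shown to differ between the times. Leaving out both TCDD libraries numbered 2 gave 0.48 (SE 0.31) at 60 hpf. Library 2 held the lowest miR-210* level of the TCDD libraries of 60 hpf, so leaving it out could only raise the TCDD mean. The size of the log2 fold change of miR-210* at 60 hpf depended on the scaling. Total counts gave 0.70 (SE 0.24, edgeR adjusted p = 0.314) and upper quartile scaling 0.63 (SE 0.29, edgeR adjusted p = 0.641). With DESeq2 it was 0.44 (SE 0.18, DESeq2 adjusted p = 0.193), and none of these values passed.

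The minor arm made up 53.2%, 99.0% and 89.9% of the counts of the miR-210 hairpin in the TCDD libraries of 36 hpf, against 57.7%, 54.7% and 51.8% in the DMSO libraries. At 60 hpf the shares were 67.0%, 98.9% and 48.8% in TCDD and 43.4%, 57.3% and 44.8% in DMSO embryos. The exact 95% binomial interval was 98.5% to 99.3% in TCDD library 2 of 36 hpf and 98.6% to 99.1% in that of 60 hpf, so counting error was small beside the gap to the other libraries. Such intervals cover counting error only. The shares are of sequenced reads. The groups overlapped at both times because TCDD library 1 at 36 hpf and TCDD library 3 at 60 hpf had shares within the range of the DMSO libraries.

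**Figure D2:**
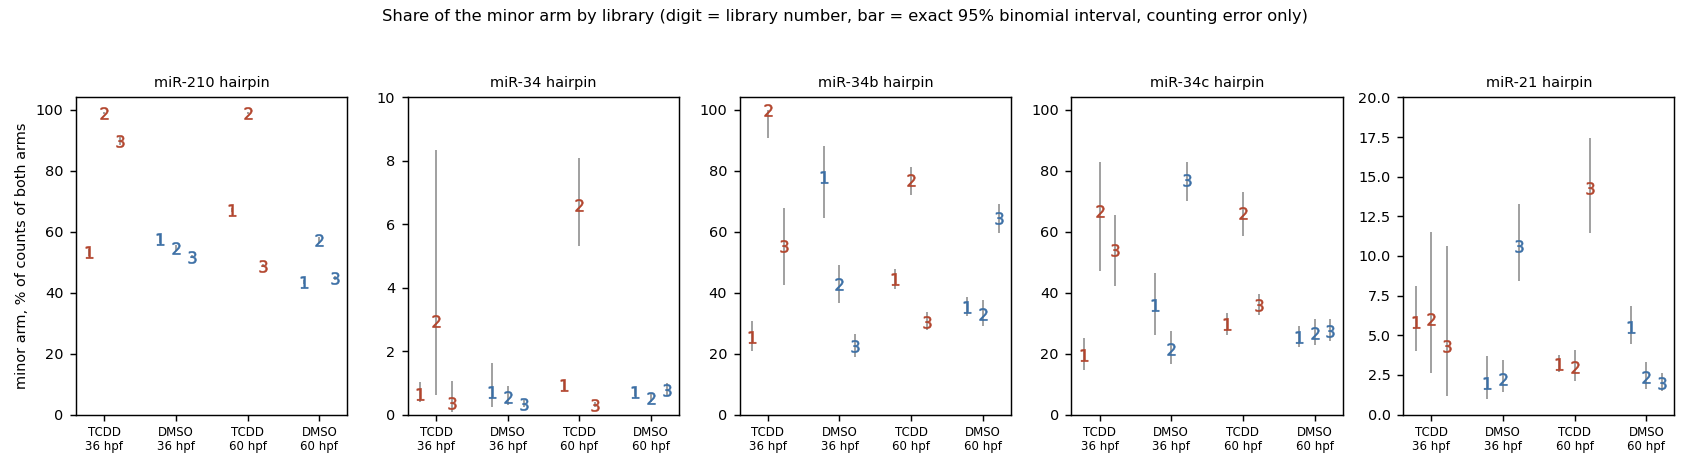
Minor arm as a percentage of the counts of both arms, for each hairpin and library, with exact 95% binomial intervals as bars; TCDD libraries are red and DMSO libraries blue, and the vertical scales differ. For miR-21 the minor arms of both copies are summed and the major arm is counted once. In the TCDD libraries numbered 2 the minor arm makes up 99.0% and 98.9% of miR-210 and 2.94% and 6.60% of miR-34, the highest shares of each hairpin.

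miR-34, the zebrafish counterpart of the p53 target miR-34a, was the most abundant of its family. It stood at 2460.0, 157 and 1989.6 CPM in the TCDD libraries of 36 hpf, against 1198, 2326 and 3125 CPM in the DMSO libraries. At 60 hpf it stood at 3825, 501 and 4037 CPM in TCDD and at 3511, 3720.05 and 2525 CPM in DMSO embryos. TCDD library 2 was again the low one, 7.65-fold below the next lowest library at 36 hpf and 5.03-fold at 60 hpf, and the other TCDD libraries lay within or above the DMSO range. The log2 fold change was -0.53 (SE 0.89) at 36 hpf and -0.22 (SE 0.88) at 60 hpf, and neither passed edgeR's test. Without the TCDD libraries numbered 2 the values were -0.09 (SE 0.45) and 0.30 (SE 0.45), so the sign at 60 hpf turned. Upper quartile scaling and total counts turned it as well, to 0.02 and 0.07. At 36 hpf limma-voom gave -1.21 (SE 1.06).

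The minor arm miR-34* was rare beside its major arm, with 3 to 139 counts per library. It averaged 9.49 ± 6.11 CPM in TCDD embryos and 10.6 ± 2.22 CPM in DMSO embryos at 36 hpf, and 27.9 ± 13.2 CPM in TCDD embryos and 21.6 ± 3.30 CPM in DMSO embryos at 60 hpf (n = 3 each, SD). For TCDD against DMSO its log2 fold change was -0.09 (SE 0.54) at 36 hpf and 0.36 (SE 0.47) at 60 hpf, and neither passed. At 36 hpf it was positive without both TCDD libraries numbered 2 (0.14) or numbered 3 (0.05), and without TCDD library 1 of that time it was -0.86. Its share of the hairpin was 2.94% (exact 95% binomial interval 0.611% to 8.36%) in TCDD library 2 of 36 hpf and 6.60% (5.32% to 8.08%) in that of 60 hpf. In the 10 other libraries the share ran from 0.312% to 0.924%, below the interval of TCDD library 2 at 60 hpf but overlapping its interval at 36 hpf. The low major arm was thus not accompanied by an equal loss of the minor arm at 60 hpf, where miR-34* stood at 35.4 CPM in TCDD library 2 and at 35.7, 12.6, 25.4, 19.6 and 19.8 CPM in the other libraries of that time. At 36 hpf only 3 counts of miR-34* were seen in that library, too few to tell.

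miR-34b and miR-34c, whose genes are neighbours, were much scarcer than miR-34 and varied widely. miR-34b stood at 197, 0 and 70.9 CPM in the TCDD libraries of 36 hpf, against 20.1, 114 and 107 CPM in the DMSO libraries. The 0 counts of TCDD library 2 allow a level of up to 4.75 CPM, which is what 3 counts are worth there. At 60 hpf miR-34b stood at 129, 31.0 and 127 CPM in TCDD and at 162, 129 and 47.4 CPM in DMSO embryos. The groups overlapped at both times, with log2 fold changes of 0.15 (SE 1.18) at 36 hpf and -0.23 (SE 1.16) at 60 hpf by edgeR, neither of which passed. Without the TCDD libraries numbered 2 they were 0.62 (SE 0.78) and 0.22 (SE 0.78). The value at 36 hpf was negative with limma-voom (-1.57) and without TCDD library 1 of that time (-1.30), and upper quartile and total count scaling made the value at 60 hpf positive (0.02 and 0.06).

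miR-34c stood at 168, 15.8 and 85.5 CPM in TCDD and at 99.0, 149 and 12.1 CPM in DMSO embryos of 36 hpf. At 60 hpf it stood at 114, 24.4 and 91.8 CPM in TCDD and at 135, 121 and 144 CPM in DMSO embryos. All TCDD libraries of 60 hpf lay below all DMSO libraries, with means of 76.8 ± 46.7 CPM in TCDD embryos and 133 ± 11.96 CPM in DMSO embryos (n = 3 each, SD). The log2 fold change was -0.79 (edgeR, SE 0.90, adjusted p = 0.992) and did not pass. It was -0.33 (SE 0.78) without the TCDD libraries numbered 2. At 36 hpf it was 0.07 (SE 0.91), or 0.54 (SE 0.77) without those libraries and -0.75 (SE 1.01) without TCDD library 1 of that time.

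The neighbours did not keep a fixed ratio. miR-34b made up 53.9%, 0% and 45.3% of the summed counts of miR-34b and miR-34c in the TCDD libraries of 36 hpf, against 16.9%, 43.3% and 89.9% in the DMSO libraries. At 60 hpf it made up 53.1%, 55.9% and 58.1% in TCDD and 54.6%, 51.7% and 24.7% in DMSO embryos. The 3 TCDD libraries of 60 hpf were thus close to each other although library 2 held the lowest levels of both miRNAs. For the minor arms the same share was steadier, from 43.6% to 68.3% over all 12 libraries. miR-34b* averaged 71.8 ± 14.5 CPM in TCDD embryos and 62.2 ± 27.8 CPM in DMSO embryos at 36 hpf, and 87.2 ± 27.2 CPM in TCDD embryos and 79.3 ± 13.6 CPM in DMSO embryos at 60 hpf. miR-34c* averaged 57.5 ± 37.3 CPM in TCDD embryos and 45.5 ± 8.54 CPM in DMSO embryos at 36 hpf, and 49.2 ± 2.24 CPM in TCDD embryos and 48.5 ± 5.54 CPM in DMSO embryos at 60 hpf (n = 3 each, SD). Log2 fold changes of TCDD were 0.21 (SE 0.42) and 0.14 (SE 0.40) for miR-34b* and 0.32 (SE 0.41) and 0.02 (SE 0.40) for miR-34c* at 36 and 60 hpf, and none passed. miR-34c* was high in TCDD library 3 of 36 hpf, at 100.2 CPM beside 31.6 to 55.4 CPM in the other libraries of that time, and without that library its value at 36 hpf was -0.36 (SE 0.29). In TCDD library 2 of 60 hpf the minor arm made up 76.8% of the miR-34b hairpin and 66.1% of the miR-34c hairpin, the highest share of each at that time.

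miR-21, the injury-linked miRNA, varied widely between libraries of each group. It stood at 447, 198 and 218 CPM in TCDD and at 817, 729 and 175 CPM in DMSO embryos of 36 hpf. At 60 hpf it stood at 998, 506 and 90.8 CPM in TCDD and at 399.7, 536 and 818 CPM in DMSO embryos. At 36 hpf TCDD libraries 2 and 3 and DMSO library 3 were low, at 60 hpf TCDD library 3 was, and the groups overlapped at both times. The log2 fold change of TCDD was -0.99 (edgeR, SE 0.78, adjusted p = 0.994) at 36 hpf and -0.14 (SE 0.77, adjusted p = 0.995) at 60 hpf. Without both TCDD libraries numbered 3 it was -0.83 (SE 0.70) and 0.36 (SE 0.67), and total count scaling also turned the sign at 60 hpf (0.16). Leaving out TCDD library 1 of 60 hpf gave -0.96 (SE 0.79) at that time. The group means were, in ascending order, 287 ± 138 CPM (TCDD, 36 hpf), 531 ± 454 CPM (TCDD, 60 hpf), 574 ± 348 CPM (DMSO, 36 hpf) and 585 ± 213 CPM (DMSO, 60 hpf; n = 3 each, SD). Each mean lay within the larger SD of its neighbour in that order.

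The endothelial miRNAs miR-126a and miR-126b were low in some of the libraries that were low in miR-21. Their summed level was 759 CPM in TCDD library 3 of 60 hpf and 861 CPM in DMSO library 3 of 36 hpf, against 3191 to 9640 CPM in the 10 other libraries. In TCDD libraries 2 and 3 of 36 hpf, where miR-21 was also low, it was 3191 and 6902 CPM. The sum takes major arms only. In TCDD library 3 of 60 hpf miR-126a was low against its own minor arm too. Its ratio of major to minor arm lay there at least 4-fold below every other library of that time. In DMSO library 3 of 36 hpf its ratio did not meet this. Both defining markers were present in every library, and their part in the level of miR-21 was not tested. The minor arm miR-21-1* did not follow the major arm down where the endothelial miRNAs were low, at 13.95 CPM in TCDD library 3 of 60 hpf and 20.3 CPM in DMSO library 3 of 36 hpf, where the range over all 12 was 9.78 to 27.5 CPM. The log2 fold change of miR-21-1* was 0.07 (SE 0.48) at 36 hpf and 0.26 (SE 0.44) at 60 hpf, and neither passed. The value at 36 hpf was slightly negative with limma-voom and upper quartile scaling (-0.02 and -0.01), and -0.53 without TCDD library 1 of that time. miR-21-2*, the minor arm of the second copy, was the feature too rare to test, at 1, 0 and 0 counts in TCDD and 2, 3 and 2 counts in DMSO embryos of 36 hpf, and 21, 3 and 6 counts in TCDD and 6, 5 and 9 counts in DMSO embryos of 60 hpf. The 2 minor arms of miR-21 were summed and set against the major arm counted once. On this count the minor arms made up 14.3% in TCDD library 3 of 60 hpf and 10.7% in DMSO library 3 of 36 hpf. In the other libraries they made up 1.98% to 6.02%.

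**Figure D3:**
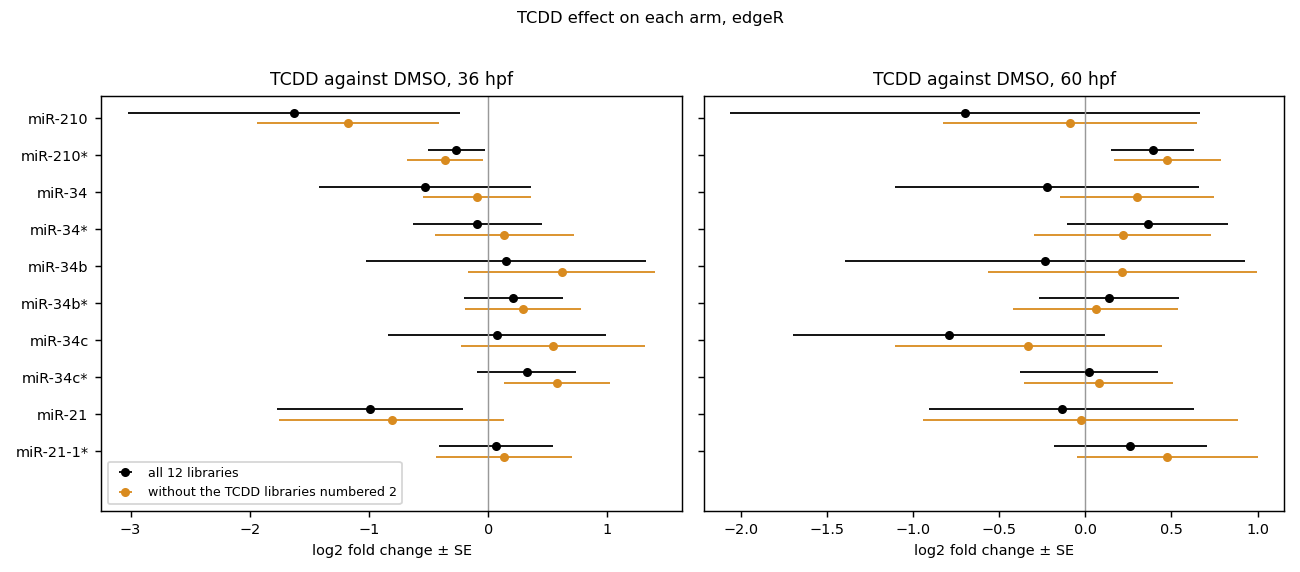
Log2 fold change of TCDD against DMSO for the 10 tested arms at 36 and 60 hpf, with the standard error as bars, from all 12 libraries (black) and without the TCDD libraries numbered 2 (orange). At 60 hpf miR-210 lies at -0.70 with all libraries and at -0.09 without those, and miR-210* lies at 0.39 and 0.48.

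In all 5 hairpins the major arm varied more between libraries of a group than the minor arm did. The SD of log2 CPM within groups was 2.40 for miR-210, 2.33 for miR-34b, 1.45 for miR-34, 1.41 for miR-34c and 1.16 for miR-21, where the median of all 412 features was 0.60. From the widest down, miR-210 ranked 5, miR-34b 8, miR-34 48, miR-34c 50 and miR-21 79. For the minor arms the SD was 0.61 for miR-34*, 0.53 for miR-21-1*, 0.49 for miR-34b*, 0.46 for miR-34c* and 0.18 for miR-210*, which ranked 408 of 412. This contrast was not general: the medians were 0.61 for 194 major arms and 0.59 for 218 minor arms, and the major arm was the wider one in 82 of 147 hairpins (55.8%). By the excess of the major arm over the minor arm, miR-210 ranked 2 and miR-34b 5 among the 147 hairpins. miR-34c ranked 29, miR-34 33 and miR-21 41. From the lowest to the highest library miR-210 ranged 79.7-fold in TCDD and 1.93-fold in DMSO embryos of 36 hpf, and 96.5-fold in TCDD and 2.19-fold in DMSO embryos of 60 hpf.

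**Figure D4:**
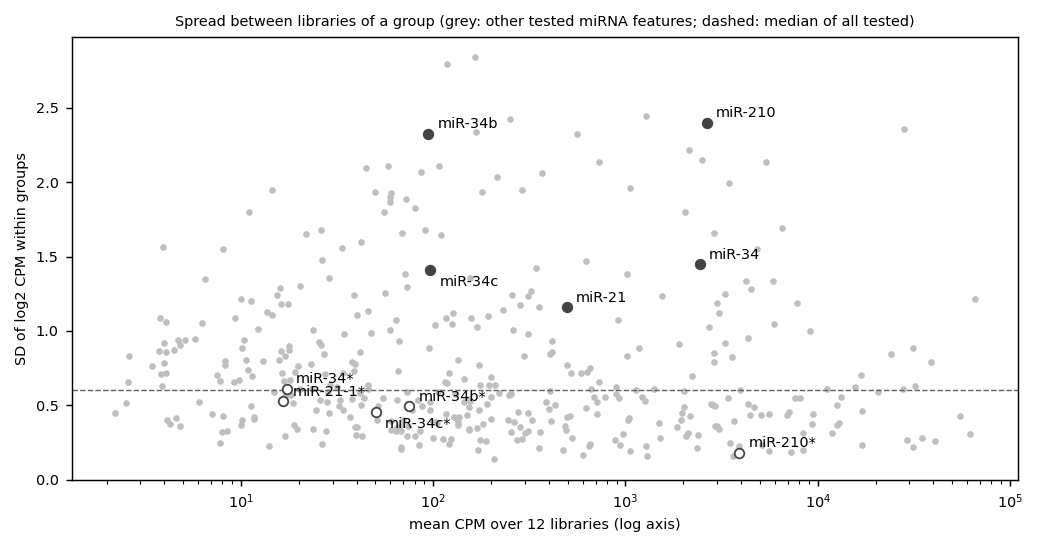
SD of log2 CPM within groups against mean CPM (log axis) for the 412 tested features; filled circles are the major arms and open circles the minor arms of the 5 hairpins, grey points the others. The 5 major arms lie at 1.16 to 2.40, above the median of 0.60, and miR-210* lies near the bottom at 0.18.

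A low ratio of major to minor arm in TCDD library 2 was shared with a few other hairpins. The ratio of major to minor arm lay at least 4-fold below every other library of its time for 12 of 147 hairpins at 36 hpf, miR-210, miR-34 and miR-34b among them, and for 8 at 60 hpf, miR-210 and miR-34 among them. In TCDD library 3 this held for 0 hairpins at 36 hpf and for 10 at 60 hpf, and in TCDD library 1 for 0 and 3. In the DMSO libraries it held for 0 to 4. Only miR-210, miR-34 and miR-18a, which lies in a cluster of proliferation-linked miRNAs, met it in TCDD library 2 at both times, and no hairpin met it at both times for any other treatment and number. For miR-34 at 36 hpf this rested on 3 counts of the minor arm, whose interval, given above, reaches into the range of the other libraries. miR-18a stood at 1462 and 175 CPM in TCDD library 2 of 36 and 60 hpf, where the lowest other libraries held 6518 and 2978 CPM. TCDD library 2 held 740434 miRNA counts at 36 hpf, where TCDD library 3 and DMSO library 1 were shallower, and 2007877 at 60 hpf, the fewest of that time. Its neural markers summed to 285 CPM at 60 hpf, where the other libraries held 1413 to 2518 CPM, and its liver and gut markers to 40.7 CPM, where the others held 120.4 to 928 CPM. At 36 hpf the same sums, 655 and 39.6 CPM, lay within the range of the other libraries. These sums take major arms only. The neural marker miR-124 was itself among the 8 hairpins with a low ratio in TCDD library 2 of 60 hpf. miR-9, the other marker in the neural sum, was not among them. The part of the low ratio of miR-124 in the low neural sum was not tested. The part of depth and of these cell types in the result was not tested.

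The features closest in pattern were named by the root mean square difference of centred log2 CPM over the 12 libraries, among 370 features of at least 10 CPM. For miR-210 they were miR-18a (1.32), miR-34 (1.43) and the erythroid miR-144 (1.48), where the median feature stood at 2.53. For miR-34b they were miR-34 (0.97), miR-1788 (1.01) and miR-144 (1.09), with a median of 2.21. miR-144 had 0 counts in TCDD library 2 of 36 hpf and 27 in that of 60 hpf, while its cluster mate miR-451, also erythroid, stood at 4623 and 2659 CPM in those libraries. miR-34 was closest to miR-138 (0.72), miR-24-3* (0.79) and miR-730 (0.88), with a median of 1.54. For miR-34c the nearest were miR-144* (0.70), miR-20a* (0.79) and miR-456 (0.81), with a median of 1.48. miR-21 was closest to miR-200a* (0.62), the endothelial miR-126a (0.78) and miR-145* (0.80), with a median of 1.30. miR-210, miR-34, miR-18a and miR-144 were the 4 features that lay at least 4-fold below every other library of their time in TCDD library 2 at both times. The distances include those libraries, and so this shared low level. All distances describe the 12 libraries and carry no test.

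Between 36 and 60 hpf, 1 member changed in DMSO embryos: miR-210* fell. It stood at 2965, 2368 and 2835 CPM in the DMSO libraries of 60 hpf, against 4121, 4985 and 6245 CPM in those of 36 hpf. The groups did not overlap, and the means were 2723 ± 314 CPM at 60 hpf and 5117 ± 1068 CPM at 36 hpf (n = 3 each, SD), a log2 fold change of -0.91 (edgeR, SE 0.24, adjusted p = 0.0227). This was 1 of 10 members tested, a share below the 18.4% called over all features, of which 5.83% fell and 12.6% rose. The adjusted p was 1.59e-07 with DESeq2 and 0.0146 with limma-voom. Leaving out 1 library ended the call in 5 cases: the adjusted p was 0.0524 and 0.0766 without 36 hpf DMSO libraries 2 and 3, and 0.0670, 0.0840 and 0.0572 without 60 hpf DMSO libraries 1, 2 and 3. The log2 fold change stayed between -1.20 and -0.77 over the 12 fits that each left out 1 library. Without both TCDD libraries numbered 2 it was -1.01 (edgeR, SE 0.28, adjusted p = 0.0457).

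In TCDD embryos miR-210* stood at 3840.1, 3343 and 3526 CPM at 60 hpf, against 4155, 4365 and 4246 CPM at 36 hpf. These groups did not overlap either, but the log2 fold change was -0.25 (edgeR, SE 0.24, adjusted p = 0.490) and did not pass, and total count scaling made it positive (0.20). As the difference between the treatments is the 0.66 given above, which did not pass, the fall in DMSO embryos is not shown to be absent from TCDD embryos. The major arm miR-210 had log2 fold changes of 0.43 (SE 1.36) in TCDD and -0.51 (SE 1.36) in DMSO embryos, neither of which passed. The minor arm's share of the hairpin averaged 48.5 ± 7.65% at 60 hpf and 54.7 ± 2.97% at 36 hpf in DMSO embryos (n = 3 each, SD).

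miR-34* was higher in value at 60 hpf in both treatments without passing. In TCDD embryos it stood at 35.7, 35.4 and 12.6 CPM at 60 hpf, against 16.4, 4.75 and 7.33 CPM at 36 hpf, with a log2 fold change of 1.46 (edgeR, SE 0.52, adjusted p = 0.0664). The values 4.75 and 7.33 CPM, of TCDD libraries 2 and 3 of 36 hpf, rest on 3 counts each. The libraries overlapped, since TCDD library 3 of 60 hpf lay below TCDD library 1 of 36 hpf. It passed without either of these libraries (adjusted p = 0.0249 and 0.0370), with DESeq2 (0.0320), with total counts (0.0243) and with hairpin copies summed (0.0482). It did not pass under the other alternatives. The edgeR adjusted p was 0.187 and 0.160 without TCDD libraries 1 and 2 of 60 hpf. Without TCDD libraries 2 and 3 of 36 hpf it was 0.177 and 0.142. The limma-voom adjusted p was 0.0907, and edgeR with the library number as a block within treatment gave 0.0905. In DMSO embryos it stood at 25.4, 19.6 and 19.8 CPM at 60 hpf, against 8.39, 12.8 and 10.6 CPM at 36 hpf, without overlap, at a log2 fold change of 1.01 (SE 0.50, adjusted p = 0.201). In TCDD embryos 0 of the 10 members passed by edgeR, with 1 at an unadjusted p under 0.05, against 21.4% of all features called. DESeq2 called 1 member there, where it called 136 over all features, and limma-voom called 0 members. Without both TCDD libraries numbered 2 the value of miR-34* in TCDD embryos was 0.99 (SE 0.61, adjusted p = 0.336). Libraries of the times did not overlap for 1 of 10 members in TCDD embryos, where the share of all features was 41%, and for 2 of 10 in DMSO embryos, where it was 42.5%.

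The p53 target miR-34 had log2 fold changes of 0.86 (SE 0.89) in TCDD and 0.55 (SE 0.89) in DMSO embryos between the times, and neither passed. Its group means ran from 1535 ± 1217 CPM (TCDD, 36 hpf) through 2216 ± 968 CPM (DMSO, 36 hpf) and 2788 ± 1983 CPM (TCDD, 60 hpf) to 3252 ± 638 CPM (DMSO, 60 hpf; n = 3 each, SD), with neighbouring means closer than their SDs. miR-21 had log2 fold changes of 0.88 (SE 0.78) in TCDD and 0.03 (SE 0.77) in DMSO embryos, and neither passed.

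Lists of miRNAs related by role gave no call for TCDD by edgeR. Of 31 tested arms of 11 miRNAs that respond to hypoxia in mammalian cells, 0 passed at 36 or 60 hpf, with 3 and 5 arms at an unadjusted p under 0.05 and 0 called by DESeq2 or limma-voom. Those arms were 9.68% and 16.1% of the list, where 3.88% and 6.8% of all features had such a p, and no test of that difference was run. Averaged over both times edgeR called 0 arms of the list, with 3 at an unadjusted p under 0.05, and limma-voom called 0. Those 3 arms were 9.68% of the list, beside 4.85% of all features. DESeq2 called 1 arm, miR-26b* (log2 fold change 1.004, SE 0.24, DESeq2 adjusted p = 0.00252), which was named after its value was seen. Over all features DESeq2 called 4 in that comparison and edgeR 1. The list's median log2 fold change was 0.03 and 0.22, beside 0.04 and 0.00 over all features. The most abundant of them were miR-103, with log2 fold changes of 0.23 (SE 0.32) and -0.02 (SE 0.32) at 36 and 60 hpf, and miR-181a, with -0.08 (SE 0.39) and -1.08 (SE 0.39). None of these passed.

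Of 25 tested arms linked to p53 in mammalian cells or zebrafish, 0 passed at either time by edgeR and 0 by the other tools. Over all features edgeR called 0% at 36 hpf and 0.243% at 60 hpf. The list had 0 arms at an unadjusted p under 0.05, where 3.88% and 6.8% of all features had such a p. The medians of the list were 0.04 and 0.06. Among the p53-linked arms miR-16c, of a family that restrains the cell cycle, had log2 fold changes of 0.41 and -0.23 (SEs 0.38 and 0.38). For miR-16b they were 0.38 (SE 0.45) and -0.14 (SE 0.45). Of 27 tested arms linked to injury and inflammation, 0 passed by edgeR, against the same shares over all features, and 0 by the other tools. At an unadjusted p under 0.05 there were 0 and 2 arms, or 0% and 7.41%, beside 3.88% and 6.8% over all features. The list's medians were 0.16 and -0.01. The most abundant were miR-133a-1* of muscle, with -0.05 (SE 0.24) and -0.16 (SE 0.24), and miR-221 of vessels, with 0.33 (SE 1.29) and 0.29 (SE 1.29). No value of these 4 arms passed.

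Between 36 and 60 hpf, 7 of the 25 p53-linked arms rose and 0 fell in TCDD embryos, where over all features 12.6% rose and 8.74% fell. In DMSO embryos 7 rose and 0 fell, where over all features 12.6% rose and 5.83% fell. Most of the arms that rose belonged to the miR-125 family. These were miR-125a, miR-125a-2*, miR-125b and miR-125b-1* in both treatments and miR-125c in TCDD embryos. The others were miR-143 and miR-194b* in TCDD and miR-145, miR-192 and miR-194a in DMSO embryos. The median log2 fold change of the list was 0.83 in TCDD and 0.65 in DMSO embryos, where over all features it was 0.09 and 0.08. Without both TCDD libraries numbered 2 the calls were 3 in TCDD and 4 in DMSO embryos. Over all features that fit called 37 of 426 in TCDD embryos, against 88 of 412 with all libraries. The matching number in DMSO embryos is not given here, so whether the lower count there is particular to this list cannot be told. miR-125b, which represses p53 in zebrafish, rose by 1.34 (edgeR, SE 0.24, adjusted p = 0.00396) in TCDD and by 1.35 (SE 0.24, adjusted p = 0.00351) in DMSO embryos on the log2 scale. On the same scale miR-125a rose by 2.33 (SE 0.38, adjusted p = 0.00275) in TCDD and by 2.42 (SE 0.38, adjusted p = 0.00159) in DMSO embryos. All of these arms were named after their values were seen. Their values in TCDD embryos come from the fit that does not use the pairing of TCDD libraries by number.

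In the hypoxia-linked list 2 arms, or 6.45%, rose in DMSO embryos, below the 12.6% over all features. miR-181a averaged 24256 ± 3113 CPM at 60 hpf and 7517 ± 2054 CPM at 36 hpf (n = 3 each, SD), a log2 fold change of 1.69 (edgeR, SE 0.40, adjusted p = 0.0139), and the other arm was miR-181b-2*. In TCDD embryos 1 arm rose, miR-181b-2*, or 3.23% against 12.6%. In the injury-linked list 3 arms rose in each treatment, all of the neuronal miR-132, and this 11.1% of the list lay near the 12.6% over all features. In TCDD embryos 2 arms fell, miR-133b* (edgeR adjusted p = 0.0496) and miR-221* (edgeR adjusted p = 0.0317), or 7.41% near the 8.74% over all features. Without both TCDD libraries numbered 2 the calls of this list were 0 in TCDD and 1 in DMSO embryos. That fit called 37 of 426 features in TCDD embryos, and the matching number in DMSO embryos is not given here. Other than miR-181a, these arms were named after their values were seen.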

How the data were processed

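Per the labels' protocols, the libraries of the 12 samples were prepared by the SREK protocol for small RNA, and a SOLiD V3 system read them. Counts were deposited as whole numbers, with a separate table for each sample that lists the features seen at least 1 time; a feature missing from a table was taken as 0. edgeR is named in the submitters' processing notes without a version or role. Aligner, miRNA annotation and build: not given in the sources used here.

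Samples were grouped by their titles. Rows that are not miRNAs (1.2% to 5.35% of counts) stayed out of library sizes and tests. Hairpin copies with 80% or more of the total of their top copy were counted once, by that top copy, and other copies stayed separate; near-identical paralogs can still share reads. Features passing filterByExpr (minimum count 10, total 15) were scaled by TMM factors and fitted with edgeR 4.0.16 in R 4.3.3 (4 group means, robust quasi-likelihood). P-values were adjusted by Benjamini-Hochberg over all 412 features, a call being an adjusted p under 0.05, and standard errors are the log2 fold change over the square root of F. The method was tested on simulated data in which every feature had the same dispersion beyond counting error. This did not test its power for arms that vary as widely as miR-210. Alternatives were other scalings and filters, DESeq2 1.42.0, limma-voom (limma 3.58.1), blocks on the library number, each library left out, the TCDD libraries numbered 3 left out and copies summed. Leaving out the TCDD libraries numbered 2 was added after the data were seen.

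The members and lists were chosen with earlier results of these data known. Named besides the members were the 3 features nearest in pattern to each major arm, the 2 most abundant of each related list, and list members called for TCDD by edgeR, of which there were none. Mature sequences were not used here, so the planned grouping by seed was not made. The library numbers were checked for pairing, taken as given where all 3 numbers correlated above 0.1 in their deviations from the group means. TCDD libraries with the same number correlated between the times at 0.25 to 0.41, so these were taken as paired. Every other pair of groups held at least 1 correlation of 0.1 or less, although single values there reached 0.21. With the number as a block within treatment, 60 features were called in TCDD embryos between the times, against 88 without it, and 0 members in both. Unless the block is named, results between the times in TCDD embryos come from the fit without it, which does not use the pairing. Calls of the related lists were not counted with the block. Depending on the library, 3 counts were worth 0.573 to 7.33 CPM.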

Additional observations from a re-analysis of the deposited data

How the results depend on the processing

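Of the log2 fold changes of members recomputed under the alternatives, 672 kept their direction and side of the threshold, 5 passed only under the alternative, 6 no longer passed and 59 turned sign; none of those that turned passed under that alternative. Upper quartile and total count scaling moved the median of all features by 0.25 and 0.31 for TCDD at 60 hpf, upper quartile scaling by -0.30 for the time in DMSO embryos and total counts by 0.45 for the time in TCDD embryos. Depth limits miR-34*, miR-21-1* and miR-21-2*, which had as few as 3, 4 and 0 counts in a library.

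For TCDD at 36 hpf, miR-21-1* turned to -0.011 with upper quartile scaling and -0.023 with limma-voom, miR-34b to -1.57 with limma-voom and miR-34c to -0.0081 with copies summed. Without the TCDD libraries numbered 3, miR-34* was 0.046 and miR-34c* -0.32, and without those numbered 2, miR-34* was 0.14. For TCDD at 60 hpf, upper quartile scaling gave 0.023 for miR-34 and 0.016 for miR-34b, total counts gave 0.073 for miR-34, 0.062 for miR-34b and 0.16 for miR-21, leaving out the TCDD libraries numbered 2 gave 0.30 for miR-34 and 0.22 for miR-34b, and leaving out those numbered 3 gave 0.36 for miR-21 and -0.018 for miR-34c*. Between the times, miR-21 in DMSO embryos was -0.060 with RLE factors, -0.24 with upper quartile scaling, -0.071 with a stricter filter, -0.060 with DESeq2, -0.019 with copies summed and -0.0067 without the TCDD libraries numbered 2. In TCDD embryos miR-210* was 0.20 with total counts, and miR-210 -0.94 without the TCDD libraries numbered 3. The cause was not tested.

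The library number as a block was tried over all libraries and within each time or treatment. At 36 hpf the block over all libraries gave -0.11 for miR-21-1*, -0.48 for miR-34b and -0.22 for miR-34c, and the block within each time gave -0.046 for miR-21-1* and -0.69 for miR-34b. For miR-210 the blocks gave -2.95 and -3.38 at 36 hpf and -1.40 and -1.83 at 60 hpf, and none of these passed. DMSO libraries with the same number did not pair (r of -0.23 to 0.02 across features between the times). With the block within treatment, miR-210* in DMSO embryos had -0.90 (edgeR adjusted p = 0.0909), so 0 members were called there, and with the block over all libraries its adjusted p was 0.0452. Over all features the 2 blocks called 2 and 0 for TCDD at 60 hpf, and 0 and 0 averaged over both times.

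Counts over all features moved with DESeq2 to 10 for TCDD at 60 hpf, 4 averaged over both times, 6 for the difference, 136 for the time in TCDD and 121 for the time in DMSO embryos. Without the TCDD libraries numbered 3 they were 0 at 60 hpf, 0 averaged and 2 for the difference, and without those numbered 2 they were 0, 0 and, for the time in TCDD embryos, 37. In TCDD embryos between the times 1 member was called with total counts, 1 with DESeq2 and 1 with copies summed.

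Leaving out each library in turn, edgeR called 0 to 1 features for TCDD at 60 hpf, 0 to 1 averaged, 0 to 2 for the difference, 56 to 87 for the time in TCDD and 48 to 90 in DMSO embryos. Members called were 0 to 1 for the time in TCDD and 0 to 1 in DMSO embryos. The log2 fold changes for TCDD at 36 hpf ran from -0.53 to 0.30 for miR-21-1*, -0.86 to 0.14 for miR-34*, -1.30 to 0.62 for miR-34b, -0.10 to 0.51 for miR-34b*, -0.75 to 0.75 for miR-34c and -0.36 to 0.57 for miR-34c*. At 60 hpf they ran from -0.96 to 0.37 for miR-21, -0.14 to 0.60 for miR-21-1*, -0.58 to 0.30 for miR-34, -0.61 to 0.22 for miR-34b and -0.019 to 0.11 for miR-34c*. Between the times they ran from -0.42 to 0.26 for miR-21 in DMSO and -0.53 to 2.79 for miR-210 in TCDD embryos.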
